A study of Mus musculus with 12 samples.

Results

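Atf4 and 9 genes known as parts of the amino acid response (Asns, Chac1, Trib3, Ddit3, Psat1, Phgdh, Sesn2, Slc7a11 and Gpt2) were followed across mouse embryonic stem cells (ESCs) and embryoid bodies (EBs) with and without the HP1 proteins. The 10 genes were taken by symbol from the 19938 genes of the array, and Atf4 and Gpt2 were on the list because they were lower in HP1bKO cells. Their HP1bKO values are therefore given as a description without a test. Levels in the other groups may have entered that choice, so tests of Atf4 and Gpt2 among those groups are not free of it. A floor of 45 in linear signal, which is 5.49 as log2, was passed on some array by 9 of the 10 genes, and these are among the 10880 genes tested. Slc7a11 did not pass it on any array.

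Transcripts were measured on 12 arrays, 2 for each of 6 groups: EBs and ESCs of HP1bKO (Cbx1-/-, lacking HP1β), HP1aKO (Cbx5-/-, lacking HP1α) and WT cells. HP1α and HP1β are chromodomain proteins that bind methylated histone H3 in heterochromatin. ESCs were grown on gelatin with growth-arrested mouse embryonic fibroblast (MEF) feeders and sorted for the surface antigen SSEA1 with magnetic beads. EBs were aggregates kept in suspension without leukaemia inhibitory factor and collected at day 7. No agent was applied to any group, and the medium described for the ESCs contained nonessential amino acids and glutamine. By the labels the WT cells are of line HM1 and both knockouts of line R1, although the methods call HM1 a littermate control. Genotype and line therefore cannot be told apart. Replicates are labelled biological, but separate cultures are not stated, so p-values measure only the spread between these samples, which may be technical.

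Facts of the whole series that touch the results are as follows. Cbx1 had log2 signals of 7.59 to 7.99 on the 4 HP1bKO arrays, below every other array. Cbx5 went against 2 labels in ESCs. It was 9.99 in the library labelled ESC HP1aKO replicate 2 and 8.04 in replicate 1, against 8.29 in the library labelled ESC WT replicate 2 and 9.66 in replicate 1. Counts of members called, and of array orders, that rest on ESC HP1aKO or ESC WT are therefore also given without those 2 libraries. This leaves 1 array in each of these groups, with the spread taken from the other groups. Replicates of the EB groups lay closer together (SD over genes of their difference 0.127 to 0.196) than those of the ESC groups (0.391 to 0.574). Because 1 spread was shared by all arrays, the test was liberal for ESCs and conservative for EBs. The 8 ESC markers, among them Pou5f1 and Nanog, were above the signal floor in all ESC groups. Feeder fibroblast markers were higher in replicate 1 of each ESC group, with Col1a1 at 7.55 and 6.49 in ESC HP1bKO, 8.30 and 6.51 in ESC HP1aKO, and 8.96 and 6.23 in ESC WT for replicates 1 and 2.

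ATF4 is a basic leucine zipper transcription factor. When amino acids run short, or when proteins misfold in the endoplasmic reticulum, kinases phosphorylate the translation factor eIF2α, most protein synthesis slows, and the Atf4 mRNA is translated more. ATF4 then binds composite C/EBP-ATF elements, also called amino acid response elements, often as a heterodimer, and drives genes that make, import and charge amino acids. Because this control acts largely on translation, Atf4 mRNA is not a measure of ATF4 protein, and neither protein nor eIF2α phosphorylation was measured here.

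Promoter letters are shown because all 10 genes matched an entry of the RefSeq promoter table (GRCm38.p6, 250 bases before to 50 after the transcription start), and 4 of them hold the core of such an element. The letters searched were TGATGNAA on both strands, which include the stricter TGATGCAA. In the stretches below, 5′ to 3′ on the strand of the gene, capitals mark the match, which reads as its reverse complement in Chac1, Trib3 and the second match of Slc7a11.
Asns, chr6:7693210-7693269, minus strand, 60 bases before the start: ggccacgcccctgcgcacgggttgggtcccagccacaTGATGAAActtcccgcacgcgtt
Chac1, chr2:119351023-119351082, plus strand: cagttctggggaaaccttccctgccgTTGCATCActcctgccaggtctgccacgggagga
Trib3, chr2:152344028-152344057, minus strand, after the start: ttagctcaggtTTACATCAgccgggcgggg
Slc7a11, chr3:50443637-50443696, minus strand: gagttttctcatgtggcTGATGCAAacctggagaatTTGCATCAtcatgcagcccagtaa
Counted from the start, the matches began at -23 in Asns, -193 in Chac1, 15 in Trib3, and -66 and -47 in Slc7a11. TGATGNAA was found in 3.97% of the 32851 promoters in the table and TGATGCAA in 0.89%. A match describes letters only, and the absence of one says only that the letters are not in this window.

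Atf4 itself was lowest in HP1bKO cells in both states. In EBs its log2 signal was 6.39 and 6.37 in HP1bKO, 7.67 and 7.54 in HP1aKO, and 7.35 and 7.38 in WT. In ESCs it was 7.05 and 7.43 in HP1bKO, 7.98 and 8.15 in HP1aKO, and 7.99 and 8.61 in WT. Within each state both HP1bKO arrays lay below the 4 other arrays. The level was 1.98-fold lower in EB HP1bKO than in EB WT and 2.08-fold lower in ESC HP1bKO than in ESC WT, as log2 differences of -0.99 ± 0.21 and -1.05 ± 0.21 (limma SE, n = 2 arrays per group). By group mean the order was ESC WT, ESC HP1aKO, EB HP1aKO, EB WT, ESC HP1bKO and EB HP1bKO. The arrays of ESC WT and ESC HP1aKO overlapped, as did those of EB WT and ESC HP1bKO, while the other neighbours in this order did not overlap. In bulk samples, fewer cells that express a gene and less RNA per cell cannot be told apart.

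**Figure D1:**
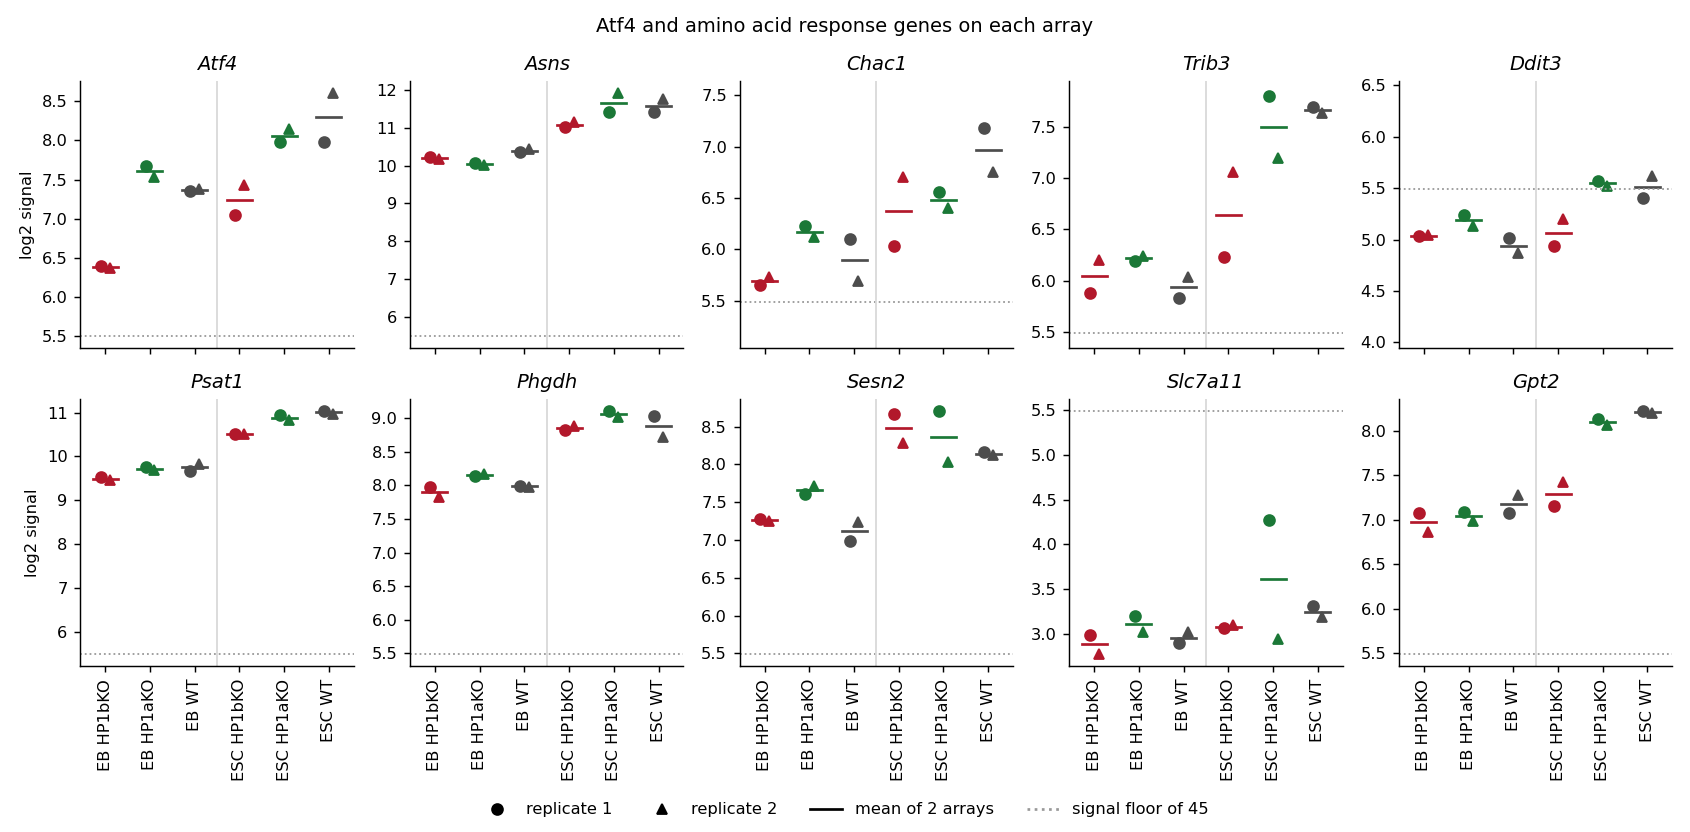
Log2 signal (y axis) of the 10 genes on each of the 12 arrays, by group (x axis: EBs left of the grey line, ESCs right of it). Circles are replicate 1, triangles replicate 2, bars the mean of the 2 arrays and the dotted line the signal floor of 45. Atf4 is lowest in HP1bKO within each state, Gpt2 is low in ESC HP1bKO and in all EBs, and Slc7a11 stays under the floor everywhere.

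Gpt2, the mitochondrial alanine transaminase, separated HP1bKO from the others in ESCs and not in EBs. In EBs it was 7.08 and 6.87 in HP1bKO, 7.09 and 6.99 in HP1aKO, and 7.07 and 7.28 in WT. In ESCs it was 7.16 and 7.43 in HP1bKO, 8.13 and 8.06 in HP1aKO, and 8.22 and 8.21 in WT. The ESC HP1bKO arrays thus lay near the range of the EB arrays, which ran from 6.87 to 7.28. The log2 difference from WT was -0.21 ± 0.14 in EBs and -0.92 ± 0.14 in ESCs, where the level was 1.89-fold lower in HP1bKO. The difference between these knockout effects (EB minus ESC) was 0.72 ± 0.20 for Gpt2 and 0.07 ± 0.29 for Atf4, both without a test because the genes were picked on these values.

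The 3 other biosynthetic enzymes had every EB array below every ESC array. Asns, asparagine synthetase, had in EBs 10.23 and 10.17 in HP1bKO, 10.06 and 10.01 in HP1aKO, and 10.36 and 10.42 in WT. In ESCs Asns had 11.01 and 11.14 in HP1bKO, 11.41 and 11.91 in HP1aKO, and 11.40 and 11.76 in WT. ESC HP1bKO was the lowest ESC group for Asns, by both arrays. Psat1, the phosphoserine aminotransferase of serine synthesis, had in EBs 9.54 and 9.46 in HP1bKO, 9.75 and 9.68 in HP1aKO, and 9.67 and 9.84 in WT. In ESCs Psat1 had 10.51 and 10.52 in HP1bKO, 10.94 and 10.84 in HP1aKO, and 11.04 and 10.97 in WT. Like Atf4, Psat1 had both HP1bKO arrays below the 4 others in each state. Phgdh, whose product takes the first step of serine synthesis, had in EBs 7.98 and 7.83 in HP1bKO, 8.14 and 8.16 in HP1aKO, and 7.99 and 7.97 in WT. In ESCs Phgdh had 8.83 and 8.88 in HP1bKO, 9.11 and 9.02 in HP1aKO, and 9.04 and 8.72 in WT. Its ESC HP1bKO arrays lay inside the ESC WT range.

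Trib3, Ddit3 and Chac1 act in the stress response itself. Trib3, a pseudokinase that restrains ATF4 activity, had in EBs 5.88 and 6.20 in HP1bKO, 6.20 and 6.24 in HP1aKO, and 5.84 and 6.04 in WT. In ESCs Trib3 had 6.23 and 7.05 in HP1bKO, 7.79 and 7.19 in HP1aKO, and 7.69 and 7.63 in WT. The HP1bKO arrays were the lowest of the ESCs, with a gap between them larger than that of either other ESC group. Ddit3, which encodes the C/EBP-related factor CHOP, had in EBs 5.03 and 5.04 in HP1bKO, 5.24 and 5.14 in HP1aKO, and 5.01 and 4.87 in WT. In ESCs Ddit3 had 4.93 and 5.20 in HP1bKO, 5.57 and 5.53 in HP1aKO, and 5.40 and 5.62 in WT. It crossed the floor only on ESC arrays of HP1aKO and WT, so it entered the test through the groups where it was high.

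Chac1, a glutathione-degrading enzyme, had in EBs 5.66 and 5.74 in HP1bKO, 6.22 and 6.12 in HP1aKO, and 6.10 and 5.70 in WT. In ESCs Chac1 had 6.04 and 6.71 in HP1bKO, 6.56 and 6.41 in HP1aKO, and 7.18 and 6.75 in WT. Only the ESC WT arrays lay above all other arrays. Sesn2, a leucine sensor upstream of mTORC1, ran another way in ESCs, with 8.66 and 8.29 in HP1bKO, 8.71 and 8.03 in HP1aKO, and 8.16 and 8.13 in WT. In EBs Sesn2 had 7.28 and 7.25 in HP1bKO, 7.60 and 7.71 in HP1aKO, and 6.99 and 7.24 in WT. Slc7a11, the cystine and glutamate antiporter, was under the floor on all 12 arrays, at most 4.27 in ESC HP1aKO replicate 1 and 2.77 to 3.31 elsewhere, so no change in it could be read.

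In WT cells, whose EBs were compared with ESCs to follow differentiation, all 9 measured members fell. Called lower were 9 of 9 members in EB WT against ESC WT, where 14.2% of the 10880 genes tested fell (limma, Benjamini-Hochberg adjusted p under 0.05, two-sided). The members' median log2 difference was -1.04, against 0.05 over all genes tested. Trib3 fell by 1.72 ± 0.27 on the log2 scale (adjusted p = 0.00153), a 3.30-fold lower level. Psat1 fell by 1.25 ± 0.12 (adjusted p = 8.35e-05), Asns by 1.19 ± 0.18 (adjusted p = 0.00128) and Gpt2 by 1.04 ± 0.14 (adjusted p = 0.000774). Atf4 fell by 0.93 ± 0.21 (adjusted p = 0.00785), to levels 1.91-fold lower in EB WT. The other 4 members fell by 0.57 in Ddit3 to 1.07 in Chac1. The arrays of EB WT and ESC WT did not overlap for any of the 9 members, as for 30.2% of genes in this direction. Ddit3, which had entered through its ESC signal, adds little to this count, and without it all 8 other measured members fell. Atf4 and Gpt2 were picked as lower in HP1bKO, a choice that high WT levels could favour, so their calls add little too. The members left (Asns, Chac1, Trib3, Psat1, Phgdh and Sesn2) were all called lower. Without the 2 libraries whose Cbx5 opposed the label, 9 of 9 still fell, with Atf4 at -0.62 (adjusted p = 0.0219), where 14.0% of all genes did, and the 9 still had both EB WT arrays below the ESC WT array left, as for 37.6% of genes. Leaving out ESC WT replicate 2 alone gave Atf4 -0.62 (adjusted p = 0.0353) and took the call from Ddit3 (-0.46, adjusted p = 0.0602). The calls of Chac1 (-0.87, adjusted p = 0.0709) and Ddit3 (-0.49, adjusted p = 0.0919) were lost without EB WT replicate 2, and that of Sesn2 (-0.90, adjusted p = 0.0522) without EB WT replicate 1.

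The knockout lines, each with EB and ESC arrays of its own, showed the same direction for most members. In HP1aKO, 6 of 9 members fell in EBs against ESCs, where 16.5% of all genes tested fell. The 6 include Gpt2, which was picked on its HP1bKO levels. Asns fell by 1.62 ± 0.18 (adjusted p = 0.000171), the steepest fall of a member in this line, and Trib3 by 1.27 ± 0.27 (adjusted p = 0.00555). Psat1, Gpt2, Phgdh and Sesn2 fell by 1.17, 1.06, 0.91 and 0.71. Atf4 had a difference of -0.46 ± 0.21 (adjusted p = 0.101), Ddit3 -0.36 ± 0.14 (adjusted p = 0.0630) and Chac1 -0.31 ± 0.24 (adjusted p = 0.319). When ESC arrays were blocked by replicate number, since same-numbered ESC arrays deviated together, Atf4 (adjusted p = 0.0146) and Ddit3 (adjusted p = 0.0326) passed as well. They also passed without ESC WT replicate 1 (adjusted p = 0.0317 and 0.0463) or ESC WT replicate 2 (adjusted p = 0.0318 and 0.0464), which changed only the shared spread. The 2 groups did not overlap for any of the 9 members, as for 33.9% of genes in this direction. The Sesn2 call was lost without ESC HP1aKO replicate 1 (-0.37, adjusted p = 0.143), EB HP1aKO replicate 1 (-0.66, adjusted p = 0.130) or EB HP1aKO replicate 2 (-0.76, adjusted p = 0.0870). Without the 2 libraries whose Cbx5 opposed the label, 6 of 9 members fell, Sesn2 by 1.05 (adjusted p = 0.00227), where 18.9% of all genes did, and the order of arrays held for 9 of 9 members and 42.1% of genes.

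In HP1bKO, 5 of the 7 members tested fell in EBs against ESCs, where 15.1% of all genes tested fell. Sesn2 fell by 1.21 ± 0.22 (adjusted p = 0.00262), Psat1 by 1.02 ± 0.12 (adjusted p = 0.000253) and Phgdh by 0.95 ± 0.14 (adjusted p = 0.000781). Asns fell by 0.87 ± 0.18 (adjusted p = 0.00543). Chac1 fell by 0.68 ± 0.24 at the edge of the threshold (adjusted p = 0.0492), and lost the call without ESC HP1bKO replicate 2 (-0.34, adjusted p = 0.319), EB HP1bKO replicate 1 (-0.64, adjusted p = 0.178) or EB HP1bKO replicate 2 (-0.72, adjusted p = 0.135). Trib3, at -0.60 ± 0.27 (adjusted p = 0.116), passed only without ESC HP1bKO replicate 1 (-1.01, adjusted p = 0.0184). Ddit3 had -0.03 ± 0.14 (adjusted p = 0.895). Atf4 and Gpt2 had differences of -0.86 ± 0.21 and -0.32 ± 0.14, given without a test. The EB arrays lay wholly below the ESC arrays for 8 of 9 members, all but Ddit3, as for 34.5% of genes. Over the 3 lines the differences ran from -1.25 to -1.02 for Psat1, from -0.95 to -0.89 for Phgdh and, the widest span, from -1.72 to -0.60 for Trib3.

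**Figure D2:**
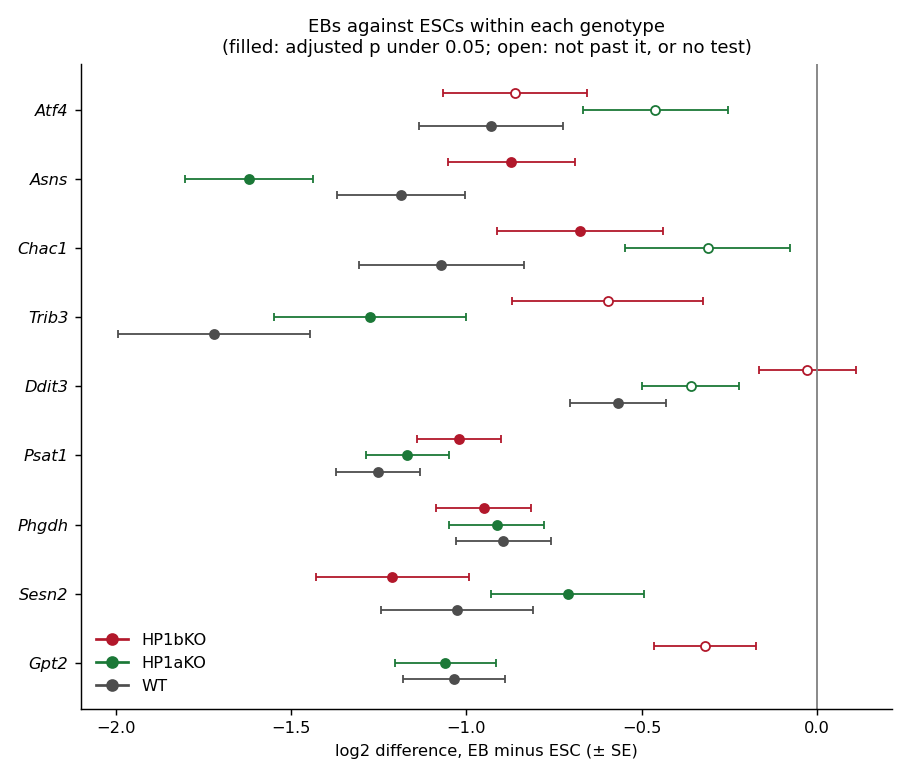
Log2 difference (x axis, EB minus ESC, ± limma SE) of the 9 measured members (y axis) in HP1bKO, HP1aKO and WT, each from 2 EB and 2 ESC arrays. Filled points passed an adjusted p of 0.05, open points did not or had no test (Atf4 and Gpt2 in HP1bKO). Psat1, Phgdh, Asns and Sesn2 are filled in all 3 lines.

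Across genotypes, Asns, Psat1, Phgdh and Sesn2 had all 6 EB arrays below all 6 ESC arrays, 4 of 9 members against 17.6% of all genes tested, and the same 4 against 20.0% of genes without the 2 libraries whose Cbx5 opposed the label. For each of the other 5 members at least 1 ESC HP1bKO array lay below the highest EB array, and no other ESC array did. Of these, Atf4 and Gpt2 were picked on HP1bKO levels and Ddit3 was tested through its high ESC arrays, which leaves Chac1 and Trib3. The share of all genes with this order was not counted, so nothing is read from it. The cell makeup of the samples moved with these results. The summed signal of the 8 ESC markers was 3899 to 4064 in EB HP1bKO, 1746 to 1859 in EB HP1aKO and 2037 to 2314 in EB WT, against 14586 to 21890 over the ESC arrays. Visceral endoderm markers (6, all under the floor in ESCs) summed to 741 to 1731 in EBs against 103 to 118 in ESCs, and the 3 measured primitive erythroid markers, also under the floor in ESCs, summed to 1882 to 3530 against 39.6 to 70.1. Feeder fibroblast markers summed to 1919 to 5475 in EBs and 321 to 1914 in ESCs, with 9 markers on the array. Among them Col3a1, Postn and Lum rose in all 3 lines while Thy1 fell in HP1aKO and WT, so the EB sum is not read as an amount of feeder cells. The part of cell makeup in the members' falls was not tested.

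In the knockouts against WT within a state, no member passed the test. In ESC HP1bKO against ESC WT, 0 of 7 members tested passed, as did 0.00% of all genes tested, by limma, and 0 by the pairwise rule of the methods read as a 1.5-fold change in every pair of arrays, which 41 of all genes passed. At an unadjusted p under 0.05 there were Asns, Chac1, Trib3 and Psat1, and Ddit3, which entered the test through the groups it was high in, where 5.86% of all genes tested were below that value. Trib3 had the largest difference of a tested member, -1.02 ± 0.27 (adjusted p = 0.639), and Psat1 had -0.49 ± 0.12 (adjusted p = 0.539). Asns had -0.51 ± 0.18 (adjusted p = 0.759) and Sesn2 0.33 ± 0.22 (adjusted p = 0.926). Phgdh had -0.02 ± 0.14, with a 95% interval of -0.33 to 0.28. With Atf4 and Gpt2 counted, the arrays did not overlap and HP1bKO was lower for 7 of 9 members, as for 12.7% of all genes tested. Those not picked on HP1bKO or tied to the floor were Asns, Chac1, Trib3 and Psat1. Without the 2 libraries whose Cbx5 opposed the label the order held for 8 of 9 members, Phgdh as well, and for 29.4% of genes.

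Against both other ESC groups together, HP1bKO was below all 4 arrays for Asns, Trib3 and Psat1, beside the picked Atf4 and Gpt2 and the floor-bound Ddit3, where 5.65% of all genes tested had this order. With the 2 libraries whose Cbx5 opposed the label left out, it held for these 6 and Phgdh, and for 1410 of the 10880 genes. In EBs the order held for Psat1 and the picked Atf4, where 19.4% of genes had it, and Psat1 and Atf4 were the members that had it in both states, as did 1.03% of genes (2.41% with those 2 libraries left out, with the same 2 members). The ESC HP1bKO against ESC HP1aKO contrast, which uses the same HP1bKO arrays, had 0 of 7 members called, with 0.00919% of all genes called, by limma. At an unadjusted p under 0.05 there were Asns, Trib3, Psat1 and the floor-bound Ddit3, where 5.07% of all genes were below that value. Atf4 was at -0.82 ± 0.21 and Gpt2 at -0.81 ± 0.14 in this contrast, without a test. The ESC marker sum was 14586 to 17736 in ESC HP1bKO, 17346 to 20942 in ESC HP1aKO and 14632 to 21890 in ESC WT. The feeder marker sum was 350 to 745 in ESC HP1bKO, 338 to 1080 in ESC HP1aKO and 321 to 1914 in ESC WT. Atf4 and Asns were higher in replicate 2, the array with less feeder signal, in each ESC group, by 0.17 to 0.62 and 0.13 to 0.50 on the log2 scale. Sesn2 was lower in replicate 2 in each ESC group, by 0.03 to 0.68, and the other measured members changed direction between groups. The part of feeder RNA in the members' levels was not tested. Without the 2 libraries whose Cbx5 opposed the label, still 0 of 7 members passed in either contrast, while 144 genes were called against ESC WT and 42 against ESC HP1aKO.

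**Figure D3:**
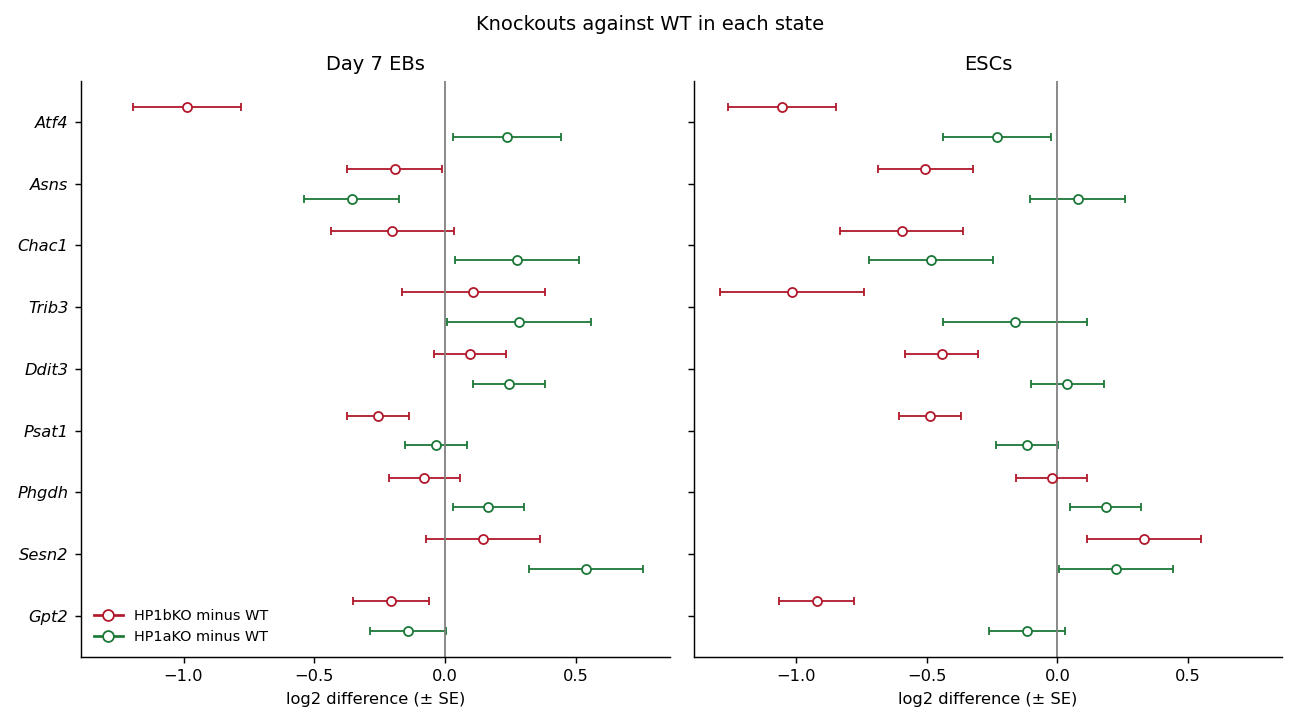
Log2 difference from WT (x axis, ± limma SE) of the 9 measured members (y axis) for HP1bKO and HP1aKO, in day 7 EBs (left) and ESCs (right), n = 2 arrays per group. Points are open because no tested member passed an adjusted p of 0.05, and Atf4 and Gpt2 had no test in HP1bKO. In ESCs 8 of the 9 HP1bKO points lie left of 0, Sesn2 being the exception. They include the picked Atf4 and Gpt2, the floor-bound Ddit3 and Phgdh at -0.02, and the median over all genes tested was -0.01. In EBs the Atf4 point of HP1bKO stands at -0.99, and the other 8 lie between -0.26 and 0.15.

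In EBs the members other than Atf4 differed from WT by -0.26 to 0.15 in HP1bKO. In EB HP1bKO against EB WT, 0 of 7 members passed by limma, where 3.24% of all genes tested did, and 0 had an unadjusted p under 0.05, against 12.6% of all genes. Psat1 had the largest of these differences, -0.26 ± 0.12 (adjusted p = 0.428), and Asns had -0.19 ± 0.18 (adjusted p = 0.785). The 95% interval for Asns, -0.60 to 0.22, still includes the value seen in ESCs. The arrays did not overlap with HP1bKO lower for 3 of 9 members (the picked Atf4, Asns and Psat1), where 28.9% of genes had this, and for 2 of the 7 members not picked on HP1bKO, a share near that of all genes. Beside the 1.98-fold lower Atf4 signal in EB HP1bKO, the other members moved little and in both directions. Asns and Psat1, neither called, were 1.14-fold and 1.19-fold lower. Chac1, Gpt2 and Phgdh had log2 differences of -0.20, -0.21 and -0.08, and Trib3, Ddit3 and Sesn2 were higher by 0.11, 0.10 and 0.15. In EB HP1bKO against EB HP1aKO, which shares the HP1bKO arrays, 0 of 7 members passed by limma, where 3.73% of genes did, 0 had an unadjusted p under 0.05, against 13.7% of all genes, and Atf4 was at -1.22 ± 0.21. Cell makeup differed between these EBs, with a cardiomyocyte marker sum of 495 to 795 in EB HP1bKO, 10682 to 10783 in EB HP1aKO and 5179 to 5724 in EB WT, and its part in the Atf4 level was not tested.

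HP1aKO cells showed no call among the members in either state. In ESC HP1aKO against ESC WT, 0 of 9 members passed, as did 0.00% of all genes tested, and 0 had an unadjusted p under 0.05, against 1.07% of all genes. With the 2 libraries whose Cbx5 opposed the label left out, still 0 of 9 passed, while 68 genes were called. Atf4 had -0.23 ± 0.21 (adjusted p = 1.00) and Chac1 the largest difference, -0.48 ± 0.24 (adjusted p = 1.00). In EB HP1aKO against EB WT, 0 of 9 members passed by limma, where 1.24% of genes did, and of the 9 only Sesn2 had an unadjusted p under 0.05, against 8.35% of all genes. Sesn2 was at 0.54 ± 0.22 (adjusted p = 0.512), Asns at -0.36 ± 0.18 (adjusted p = 0.691) and Atf4 at 0.24 ± 0.21 (adjusted p = 0.933). In a fit on EB arrays alone, whose replicates were tighter, Sesn2 was higher (adjusted p = 0.0148) and Asns lower (adjusted p = 0.0299) in EB HP1aKO than in EB WT, 2 of 9 members where 1332 of all genes passed. The arrays did not overlap with HP1aKO higher for 6 of 9 members, where 34.9% of genes had this. Those 6 were Atf4, Chac1, Trib3, Ddit3, Phgdh and Sesn2, while Asns was the 1 member with both HP1aKO arrays below WT, an order that 23.8% of genes had.

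The HP1bKO effect in EBs minus that in ESCs was tested for 7 members, and 0 passed by limma, where 1.30% of all genes tested did. Trib3 had the largest value, 1.12 ± 0.39 (adjusted p = 0.264), with a difference from WT of 0.11 in EBs and -1.02 in ESCs. Ddit3 followed with 0.54 ± 0.20 (adjusted p = 0.298), and these were the 2 members at an unadjusted p under 0.05, where 11.2% of all genes were. Ddit3 was under the floor in every EB and HP1bKO array. Leaving out the 2 libraries whose Cbx5 opposed the label, 0 of 7 members passed and 627 genes did. Phgdh had -0.06 ± 0.19, with a 95% interval of -0.49 to 0.38. The same quantity for HP1aKO, tested after seeing the data, passed for 0 of 9 members by limma, where 0.230% of genes passed, and Chac1 was the 1 member at an unadjusted p under 0.05, against 5.65% of all genes. It was not fitted without those 2 libraries. These values do not show that the effect differed, or that it was the same, between EBs and ESCs.

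Genes that share the pathway were followed through lists drawn up from general knowledge, but with earlier results of these data known. The enzymes of serine, glycine and one-carbon synthesis fell in EBs: 7 of 9 measured genes fell in EB HP1bKO, in EB HP1aKO and in EB WT, each against its ESCs, and they were the same 7 genes (Psph, Shmt1, Shmt2, Mthfd2, Mthfd1l, Mthfd1 and Gldc). Of all genes tested, 8.48% fell in all 3 lines. Mthfd2, a mitochondrial folate enzyme often induced with ATF4, had log2 signals of 7.29 and 7.12 in EB HP1bKO, 7.49 and 7.41 in EB HP1aKO, and 7.40 and 7.38 in EB WT. In ESCs Mthfd2 had 8.32 and 8.64 in HP1bKO, 9.25 and 8.80 in HP1aKO, and 8.94 and 9.07 in WT. All 6 EB arrays were below all ESC arrays, and Mthfd2 had falls of -1.27, -1.58 and -1.61 in HP1bKO, HP1aKO and WT. Mthfd2l, a paralogue, rose by 1.09 in HP1aKO. In WT it rose by 1.38, but this rested on ESC WT replicate 2 (log2 signal 4.69, against 6.10 in replicate 1), and Mthfd2l did not pass in WT without the 2 libraries whose Cbx5 opposed the label (0.67, adjusted p = 0.0740).

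Transporters and charging enzymes moved with them. Of 12 amino acid transporters, 6 fell in EB HP1bKO, 5 in EB HP1aKO and 6 in EB WT against the ESCs of each line, and 5 fell in all 3 (Slc3a2, Slc7a5, Slc7a1, Slc7a3 and Slc1a5). Slc7a3, a cationic amino acid transporter, fell in HP1bKO, HP1aKO and WT, with log2 differences of -3.81, -3.84 and -3.90 (adjusted p from 7.75e-06 to 1.03e-05). Slc3a2, the heavy chain that pairs with both Slc7a5 and Slc7a11, fell by 1.06, 1.15 and 1.10, although Slc7a11 itself was under the floor. Slc43a1 rose in all 3 lines, by 0.68, 1.00 and 0.86. Of 18 measured aminoacyl-tRNA synthetases, which charge tRNAs with amino acids, the same 13 fell in each line and 0 rose in any, with list medians of -0.60 in HP1bKO, -0.71 in HP1aKO and -0.68 in WT. Among them Mars1 fell by 0.77, 1.02 and 1.02 and Cars by 1.29, 1.25 and 1.55. In other amino acid synthesis, 5 of 8 genes fell in all 3 lines (Got1, Cth, Cbs, Bcat1 and Bcat2). Cth, which makes cysteine, fell with differences of -1.72, -2.22 and -2.55.

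Genes listed as stress targets of ATF4 outside amino acid supply moved in both directions. Of the 10880 genes tested, 2390 rose in HP1bKO, 2723 in HP1aKO and 2391 in WT. Of 11 measured, 4 rose and 1 fell in HP1bKO, 4 rose and 3 fell in HP1aKO, and 3 rose and 2 fell in WT, in EBs against ESCs. Sesn3 and Sesn1, of the same family as Sesn2, rose in each line, Sesn3 by 1.46 in HP1bKO, 1.35 in HP1aKO and 1.71 in WT, while Sesn2 fell in each. Whether ATF4 drives Sesn3 or Sesn1 was not tested, so the direction of this list depends on their place in it. The other genes that rose were Vldlr in each line and Vegfa in HP1bKO and HP1aKO. Eif4ebp1, a repressor of cap-dependent translation, fell in each line, by 0.72, 1.23 and 0.79. Nupr1 fell in HP1aKO and WT, and Ndrg1 in HP1aKO. Of 15 endoplasmic reticulum chaperones and related genes, 1 fell in HP1bKO, 0 in HP1aKO and 0 in WT, and 2 rose in each line, where 22.0% of all genes tested rose in HP1bKO and in WT. Hspa5, the chaperone BiP, had differences of 0.29, 0.45 and 0.36 that did not pass (adjusted p from 0.0707 to 0.233).

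Genes of the upstream kinases and partners were followed in the same way. Of 13 genes for eIF2 kinases, phosphatase subunits and eIF2B, 2 fell in HP1bKO, 3 in HP1aKO and 1 in WT, in EBs against ESCs. Of all genes tested, 15.1%, 16.5% and 14.2% fell in these lines. Eif2b3, an eIF2B subunit, fell in all 3 lines. The kinase genes Eif2ak4 (GCN2) and Eif2ak3 (PERK) passed in no line. Of 8 bZIP genes, Jun rose in all 3 lines, Nfe2l2 rose in HP1bKO, and 0 fell. Of 11 NRF2 targets and glutathione genes, 4 fell in HP1bKO, 8 in HP1aKO and 3 in WT, beside the same shares of all genes, with Gclm in all 3. In the fit without the 2 libraries whose Cbx5 opposed the label, ESC WT and ESC HP1aKO kept 1 array each. Counts over the other lists are therefore not read from that fit. Of the 8 bZIP genes, Fos then fell in HP1bKO, Cebpb in HP1aKO, and Atf5 and Cebpb in WT, and Jun lost its call in WT (0.90, adjusted p = 0.0543).

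**Figure D4:**
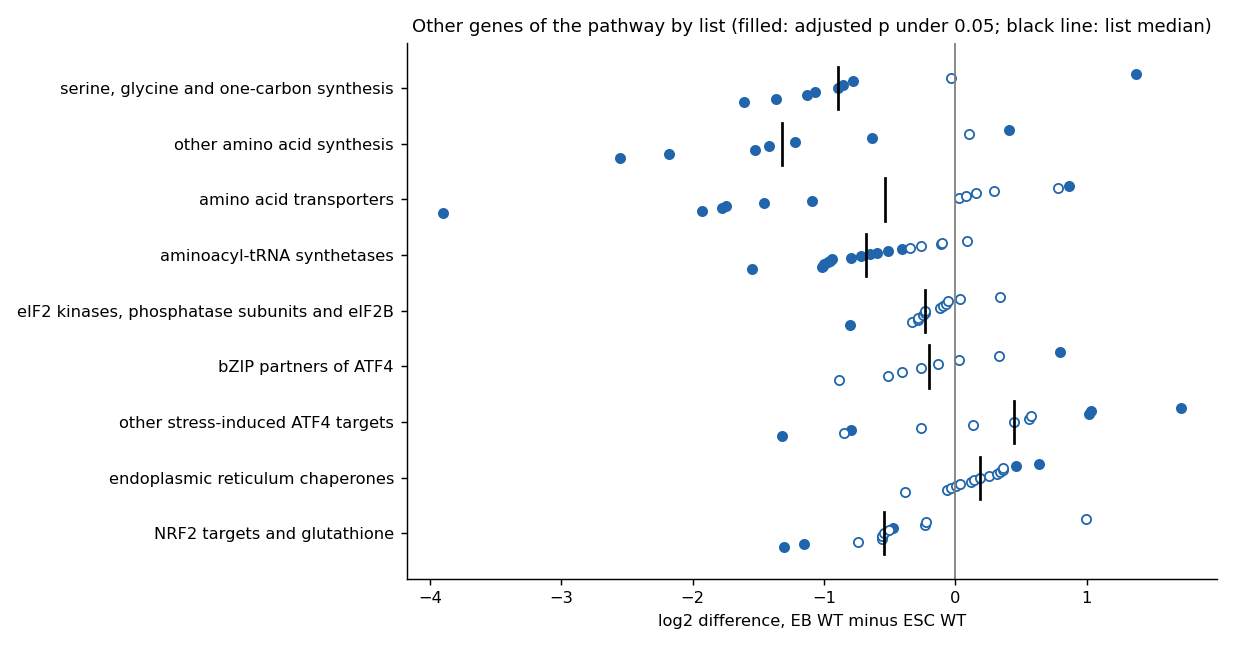
Log2 difference (x axis, EB WT minus ESC WT) of each tested gene of 9 pathway lists (y axis). Filled points passed an adjusted p of 0.05, open points did not, black lines are list medians, and the vertical spread within a list only separates points. Synthesis genes, transporters and synthetases lie mostly left of 0, with medians of -0.89, -1.32, -0.53 and -0.68, against 0.19 for the endoplasmic reticulum chaperones.

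In the knockouts against WT or each other, 2 genes of these 9 lists passed, Nqo1 and Ndrg1. Nqo1, an NRF2 target, passed between EB groups in which all its signals were under the floor (3.88 to 5.47 as log2), so no change in it is read. Ndrg1 was higher in EB HP1bKO (8.44 and 8.35) than in EB HP1aKO (6.82 and 6.85), by 1.56 ± 0.30 (adjusted p = 0.0185). In ESC HP1bKO against ESC WT the serine and one-carbon list had a median of 0.03, the synthetases -0.14 and the transporters -0.26, against -0.01 over all genes tested and -0.51 over the 9 members, the picked Atf4 and Gpt2 included.

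The genes with a profile most like that of Atf4 over the 12 arrays were sought among the 1189 genes whose range was at least the 2.24 of Atf4, a range that no other member reached (0.75 in Ddit3 to 1.96 in Trib3). Likeness was the mean absolute difference between log2 profiles, each centred on its own mean. The nearest were Epb41l4a (0.21), Elavl2 (0.24), Sall1 (0.25), Cldn4 (0.30) and Slain1 (0.32), against a median of 0.55 over all genes tested. Cldn4, which encodes a tight junction claudin, was 6.96 and 7.06 in EB HP1bKO, 8.59 and 8.67 in EB HP1aKO, and 8.29 and 8.35 in EB WT. Sall1, a zinc finger transcription factor, was 6.48 and 6.55 in EB HP1bKO, 8.03 and 8.05 in EB HP1aKO, and 8.10 and 7.98 in EB WT. In both genes EB HP1bKO was the lowest group, as in Atf4, a likeness for which they were selected. In ESCs, unlike Atf4, HP1bKO was not set apart in Sall1 or Cldn4. For the nearer Epb41l4a and Elavl2, the lowest ESC array was an HP1bKO array, and the other HP1bKO array lay inside the WT range. Epb41l4a was 5.97 and 6.55 in ESC HP1bKO and 6.41 and 7.14 in ESC WT. Elavl2 was 6.88 and 7.21 in ESC HP1bKO and 7.05 and 8.28 in ESC WT. Sall1 was 7.92 and 8.75 in ESC HP1bKO and 8.31 and 8.72 in ESC WT. Cldn4 was 8.94 and 8.06 in ESC HP1bKO and 8.47 and 9.45 in ESC WT. Among the members Gpt2 was nearest (0.31, rank 27 over all ranges, ahead of Slain1 at rank 40), then Ddit3 (0.35) and Chac1 (0.37), and Sesn2 was farthest (0.54). Atf4 and Gpt2 were both picked on HP1bKO levels, which enter this measure, so their closeness is no result. A small difference does not require that a gene vary with Atf4, and Ddit3, with a range of 0.75, hardly varied. These arrays are shared by all genes compared, and likeness is a description.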

How the data were processed

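The authors processed the arrays with RMA in Affymetrix Expression Console (versions not given in the sources used here) and deposited log2 signals, which were used as deposited, with values from 1.55 to 13.63 for 35556 features. The feature numbers match a Mouse Gene 1.0 ST annotation, whereas the methods name an exon array. Features with 1 gene symbol (21789) were kept, the brightest per gene, which left 19938 genes. Each member had 1 feature. The number of arrays limits the precision, and levels were not compared between genes.

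Genes above a signal of 45 on at least 1 array (10880) were fitted with limma 3.58.1 in R 4.3.3, with a mean per group over all 12 arrays and 6 residual degrees of freedom, with two-sided p-values and Benjamini-Hochberg adjustment per contrast. The fit was tested on simulated data. Members, lists and tests were chosen with earlier results of these data known. Named genes are the members, list genes and the 5 profiles nearest Atf4. Alternatives were a replicate block, fewer arrays, array weights, other floors, median centring, means over features, the pairwise rule of the methods and leaving out each array. The block was tried because same-numbered ESC arrays deviated together (correlations of replicate differences 0.401, 0.497 and 0.300). In EBs these were 0.112, -0.454 and -0.0921. A crossed EB block and the HP1aKO effect between states were added after seeing the data.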

Additional observations from a re-analysis of the deposited data

Results flagged for a closer look

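Ddit3 lay on opposite sides of WT in the 2 states of HP1bKO: both HP1bKO arrays were above both WT arrays in EBs and below both in ESCs. The effect in EBs minus that in ESCs was 0.54 ± 0.20 on the log2 scale (limma, adjusted p = 0.298), so the difference did not pass the test. All EB and HP1bKO signals of Ddit3 were under the floor of 45.

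Chac1 did the same with HP1aKO, both arrays lying above WT in EBs and below WT in ESCs. The effect in EBs minus that in ESCs was 0.76 ± 0.33 (limma, adjusted p = 0.879), in a test added after seeing the data, and it did not pass. The ESC values include the 2 libraries whose Cbx5 opposed the label.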

How the results depend on the processing

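In EB HP1aKO against EB WT, 2 members passed (Asns and Sesn2) with EB arrays only and 2 with array weights, against 0 with all arrays, while all genes called numbered 1332 and 1691, against 135. In EB HP1bKO against EB HP1aKO, 2 passed with EB arrays only (Chac1 and Sesn2) and 3 with array weights (Phgdh as well), against 0. Of all genes tested, 20.4% and 21.2% were called in these fits, against 3.73%. With 1 array left out, 4 to 6 members fell in HP1bKO, 5 to 6 in HP1aKO and 7 to 9 in WT in EBs against ESCs, and 0 passed in any knockout contrast. With the replicate block among ESC arrays, 5 members fell in HP1bKO, 8 in HP1aKO and 9 in WT, and 0 passed in the knockout contrasts. That block moved the count over all genes in ESC HP1bKO against ESC WT to 52, against 0 without it, and in EB HP1bKO against EB WT to 701, against 353. The crossed block in EBs gave 0 members in EB HP1bKO against EB WT. Over the called members, 243 of the values under alternatives kept direction and call and 16 kept direction but lost the call. On the groups compared only, those lost were Atf4 (adjusted p = 0.0593) and Ddit3 (0.0751) in WT, Sesn2 (0.0961) in HP1aKO and Chac1 (0.0654) in HP1bKO. Centring each array on its median lowered EB minus ESC differences by 0.13 in each line, reversed no called member, and called Atf4 and Ddit3 in HP1aKO. With 2 arrays per group, and ESC replicates wider than EB replicates, small ESC differences could not be resolved.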
